A study of Mus musculus with 2 samples.

Results

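The keratins described here are 8 genes of suprabasal and squamous epithelial layers, Krt4, Krt13, Krt6a, Krt6b, Krt16, Krt1, Krt10 and Krt23, taken by symbol out of 31053 genes listed for mouse urothelial organoids. Single-cell transcriptomes came from organoids grown out of bladder urothelium of wild-type C57BL/6 mice aged 8 to 10 weeks. Proliferative (P) organoids were kept in complete medium, which contains WNT3A, RSPO1, EGF, Noggin and the TGF-β receptor inhibitor LY2157299. Differentiated (D) organoids spent a first week in the same medium and a further week in medium without those 5 components. Each condition was 1 library, so no difference between P and D organoids had a replicate check and no p-value was computed. Whether cells from several mice entered a library is not given in the sources used here.

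Keratins form the intermediate filaments of epithelial cells as pairs of a type I and a type II protein. KRT4 (type II) and KRT13 (type I) pair in the suprabasal layers of moist stratified epithelia, and Krt13 is also a gene of the stratified urothelium. KRT6A and KRT6B (type II) pair with KRT16 (type I) and are known from wounded and hyperproliferative skin. KRT1 (type II) and KRT10 (type I) are the pair of the suprabasal epidermis, and KRT23 is a further type I keratin.

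The genes lie in both keratin clusters of the mouse genome (build GRCm38), all protein-coding and on the minus strand. The type II genes are on chromosome 15, with Krt6b at chr15:101676023-101680287, Krt6a at chr15:101689910-101694307, Krt1 at chr15:101845426-101850794 and Krt4 at chr15:101918535-101924735. The type I genes are on chromosome 11, with Krt10 at chr11:99385254-99389364, Krt23 at chr11:99477974-99493137, Krt13 at chr11:100117327-100121566 and Krt16 at chr11:100246091-100248902. Annotated genes on the opposite strand overlap Krt6a, Krt6b and Krt10. Of these only Gm11940, across from Krt10, had a row in the matrices, with 16 UMIs in P and 8 in D. Krt6a and Krt6b are neighbouring and similar genes, so their last 500 transcript bases, the part that 3′ libraries read, were compared in windows of 56 bases. None of 445 windows of Krt6a occurred in another gene, and its windows differed from the nearest one of Krt6b by at least 5 bases and a median of 16. Krt16 was the exception among the 8 genes, with 58 of 445 windows (13.0%) also found in Gm11597, which had no row in the matrices, and reads from that stretch cannot be placed with certainty.

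The 250 bases upstream of the transcription start are shown for Krt13 and Krt10, a type I gene that differed strongly between the libraries and one that did not. RefSeq sequences (GRCm38.p6) were at hand for 3 of the 8 genes, these and Krt23. Capitals mark matches on either strand to CACCC, the core of the site bound by Krüppel-like factors, and to TATAAA, the TATA box. They also mark TGANTCA, a loose form of the AP-1 site in which N is any base. The matches do not overlap. Krt13 reads from chr11:100121567-100121816 and Krt10 from chr11:99389365-99389614, both 5′ to 3′ on the minus strand.
Krt13: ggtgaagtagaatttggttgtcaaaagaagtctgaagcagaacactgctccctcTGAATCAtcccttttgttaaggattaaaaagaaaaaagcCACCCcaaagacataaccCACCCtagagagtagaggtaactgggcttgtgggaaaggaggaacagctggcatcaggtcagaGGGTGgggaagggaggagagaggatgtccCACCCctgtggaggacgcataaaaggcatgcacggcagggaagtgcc
Krt10: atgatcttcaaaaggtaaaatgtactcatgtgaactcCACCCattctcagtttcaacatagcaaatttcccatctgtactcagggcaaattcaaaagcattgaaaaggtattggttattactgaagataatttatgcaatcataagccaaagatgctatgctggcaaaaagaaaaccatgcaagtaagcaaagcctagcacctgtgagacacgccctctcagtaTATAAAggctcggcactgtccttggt
RefSeq gives Krt13 a second start further along the gene, at base 100120577, whose window is not printed and holds TGANTCA 183 and 34 bases and CACCC 25 bases before it. In the printed Krt13 window, at the start of the gene, CACCC stood 157, 139, 76 and 47 bases before the start and TGANTCA stood 196 bases before it. The printed TGANTCA match reads TGAATCA, whereas both matches in the window of the second start read TGACTCA. In Krt10, TATAAA stood 26 bases and CACCC 213 bases before the start, and Krt23 held none of the motifs. Among 32851 promoter windows of the same length, 52.0% held CACCC, 6.75% TGANTCA and 12.4% TATAAA, so that single matches of CACCC are common. A match describes the letters only.

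After cells with over 800 genes and at most 12% mitochondrial UMIs were kept, 6818 cells with 26681469 UMIs remained in P and 4896 cells with 20305621 UMIs in D. Median depth was 3405.5 and 3227.5 UMIs per cell. Both libraries shared 10 cell barcodes, 6 of them kept. The share of UMIs from ribosomal protein genes was 35.6% for P and 20.3% for D. On the scale of UMIs per 1000000 (CPM), 8939 genes counted well in each library had a median log2 ratio of 0.42, D over P. Each ratio is given with this shift kept and with it removed. All 5 epithelial markers were present in both libraries, Epcam at 318 CPM in P and 471 CPM in D. Of other cell types, summed UMIs of 5 fibroblast markers went from 46 in P to 1269 in D, of which 1234 were Dcn, while Col1a2 had 0 UMIs in both libraries and Col1a1 had 0 in P and 10 in D. Summed UMIs of 5 leukocyte markers went from 9 to 402, of which 400 were Laptm5, with Tyrobp and Cd3e at 0 and Ptprc at 1 and 2. Of 4 endothelial markers Cdh5 and Kdr had 0 UMIs, and the sum was 138 in P and 67 in D. The part of these markers in the results was not tested.

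To interrogate how the keratins differed between the conditions, UMIs were summed over the cells of each library. A 3′ UMI stands for 1 captured molecule, so levels were not divided by transcript length, although capture may differ between genes. Krt4, Krt16 and Krt1 were at least 2-fold higher in D organoids, whereas Krt13, Krt6a and Krt6b were at least 2-fold higher in P organoids. Krt10 and Krt23 passed neither limit. The partners of each known pair thus differed in direction or size: they moved in opposite directions in the Krt4 and Krt13 pair and between Krt6a or Krt6b and Krt16, and only Krt1 passed the limit in the Krt1 and Krt10 pair. Against these counts of 3 and 3 out of 8, 13.5% of the 10719 genes with at least 100 UMIs passed in D and 4.73% passed in P. With the shift removed the same genes passed in each direction, beside 5.64% and 8.65% of all genes tested. The median log2 ratio of the 8 genes was 0.20, or -0.22 with the shift removed, against 0.41 and -0.01 over all genes tested.

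Of the mucosal pair, Krt4 had 9143 UMIs in P and 27137 in D, or 343 CPM (exact Poisson 95% interval 336 to 350) and 1336 CPM (1321 to 1352). Its log2 ratio was 1.96 (exact conditional binomial interval 1.929 to 1.998), a 3.90-fold higher level in D, and 1.54 with the shift removed. Krt13 had 15128 UMIs in P and 646 in D, or 567 CPM (558 to 576) and 31.8 CPM (29.4 to 34.4). It was 17.8-fold lower in D. Its log2 ratio was -4.16 (-4.27 to -4.04), and -4.58 with the shift removed. The 2 partners therefore changed places: there were 0.604 UMIs of Krt4 for each UMI of Krt13 in P and 42.0 in D. All intervals cover counting error only.

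Krt6a, the leading stress-associated type II keratin here, had 14349 UMIs in P and 4773 in D, or 538 CPM (529 to 547) and 235 CPM (228 to 242). Its level was 2.29-fold lower in D, a log2 ratio of -1.19 (-1.24 to -1.15), and -1.62 with the shift removed. Its close relative Krt6b had 1085 UMIs in P, where Krt6a had 13.2 UMIs for each of them, and 28 in D, or 40.7 CPM (38.3 to 43.2) and 1.38 CPM (0.916 to 1.99). Krt6b had the most extreme ratio of the 8 genes, -4.88 (-5.48 to -4.34) on the log2 scale or 29.5-fold lower in D, and -5.30 with the shift removed. The type I partner Krt16 went the other way, from 373 UMIs (14.0 CPM, 12.6 to 15.5) in P to 973 UMIs (47.9 CPM, 44.95 to 51.03) in D. Krt16 was 3.43-fold higher in D. Its log2 ratio was 1.78 (1.60 to 1.95), and 1.36 with the shift removed. The ratio of Krt6a to Krt16 UMIs went from 38.5 in P to 4.91 in D.

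The epidermal pair was sparse in both libraries. Krt1 had 325 UMIs in P and 759 in D, or 12.2 CPM (10.9 to 13.6) and 37.4 CPM (34.8 to 40.1), and was 3.07-fold higher in D (log2 ratio 1.62, 1.43 to 1.81; 1.20 with the shift removed). Krt10 had 832 and 762 UMIs, or 31.2 CPM (29.1 to 33.4) and 37.5 CPM (34.9 to 40.3), and its log2 ratio of 0.27 (0.12 to 0.41) became -0.15 with the shift removed. The partners stood at 0.391 UMIs of Krt1 per UMI of Krt10 in P and at 0.996 in D. Krt23, the least abundant of the 8 genes in D apart from Krt6b, had 326 and 272 UMIs, or 12.2 CPM (10.9 to 13.6) and 13.4 CPM (11.9 to 15.1). Its log2 ratio of 0.13 (-0.10 to 0.37) became -0.29 with the shift removed, and its counting interval included 0.

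**Figure D1:**
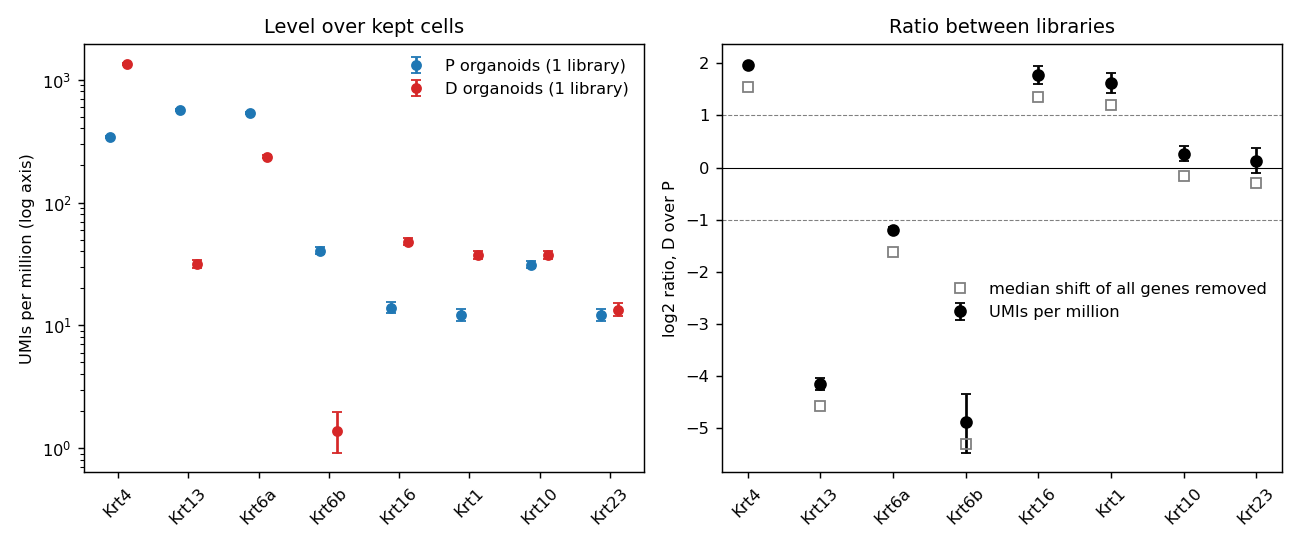
Left, level of each keratin in UMIs per 1000000 (log axis) in P and D organoids, 1 library each, with exact Poisson 95% intervals. Right, log2 ratio of D over P with its counting interval (filled) and after removal of the median shift of all genes (open squares), with dashed lines at 2-fold. Krt4, Krt16 and Krt1 lie above the upper line and Krt13, Krt6a and Krt6b below the lower line on both scales.

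Among all 53 keratin genes, the 8 genes took a smaller part in D. They held 11.4% of keratin UMIs in P (exact binomial interval 11.3 to 11.5%) and 6.92% in D (6.85 to 6.99%), while all keratins together made up 1.37% of the P library and 2.52% of the D library. Measured against all UMIs the 8 genes were at 0.156% in P and 0.174% in D, so that the summed level was nearer between the libraries than its make-up. In P the sum was shared by Krt13 (36.4%), Krt6a (34.5%) and Krt4 (22.0%). In D Krt4 alone made up 76.8% of it and Krt6a 13.5%, and each of the others gave at most 2.75%. UMIs of the 4 type II genes exceeded those of the 4 type I genes 1.49 times in P and 12.3 times in D, whereas over all keratins the type II to type I ratio was 0.783 and 0.506.

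The other 45 keratin genes gave the setting. Of 12 with at least 100 UMIs, Krt15, Krt14 and Krt8 passed the limit in D and Krt77 in P. With the shift removed Krt15 and Krt8 still passed in D, and Krt77 and Krt80 in P. Over all genes tested, 13.5% passed in D and 4.73% in P, or 5.64% and 8.65% with the shift removed. The basal keratin Krt5 was the most abundant keratin in P at 3534 CPM and was at 3954 CPM in D, above every one of the 8 genes. Krt4 in D stood beside Krt8, a type II keratin of simple and luminal epithelium, at 1338 CPM. Krt17, a type I keratin that like Krt16 is known from stressed skin, was at 49.1 CPM in P and 43.8 CPM in D.

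**Figure D2:**
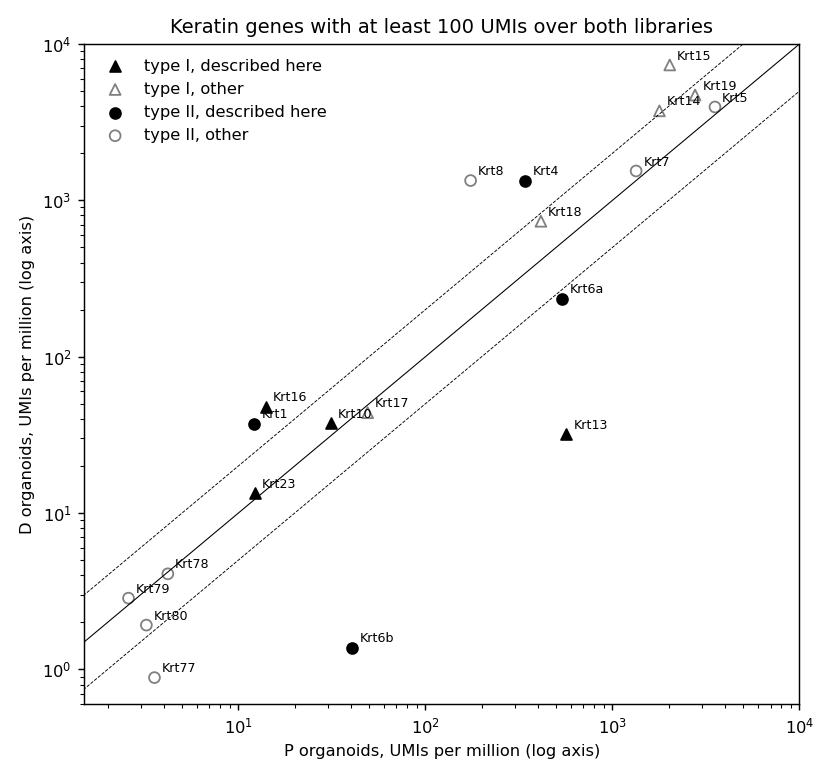
Level of each keratin gene with at least 100 UMIs in P (horizontal) and D (vertical) organoids, in UMIs per 1000000 on log axes, 1 library each. The solid line marks equal levels and the dashed lines 2-fold, filled symbols are the 8 genes described here, triangles type I and circles type II. Krt13 and Krt6b lie farthest below the line, and Krt8, Krt4 and Krt15 above it.

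Desmosomes anchor keratin filaments to the cell border. Of 12 desmosomal genes with at least 100 UMIs, only Pkp2, a plakophilin, was at least 2-fold higher in D, at 0.562 CPM in P and 5.61 CPM in D, and none passed the limit in P on either scale. Desmoplakin (Dsp), which binds the filaments, was at 326 and 363 CPM. Of 16 epithelial transcription factors tested, Grhl1, Gata3, Foxa1 and Pparg passed the 2-fold limit in D and Klf4 passed it in P. With the shift removed, Foxa1 and Pparg passed in D and Klf4, Trp63, Elf3, Cebpa and Cebpb in P. Beside both lists, 13.5% of all genes tested passed in D and 4.73% in P, or 5.64% and 8.65% with the shift removed. Klf4, a Krüppel-like factor of suprabasal and luminal epithelium, was at 144 CPM in P and 59.9 CPM in D.

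To compare shares of cells at equal depth, every cell was thinned to 2100 UMIs, which left 6638 cells of P and 4417 of D and dropped 180 and 479 shallower cells. At counts this low the share of cells and the amount per positive cell both rise with the level. They therefore do not separate more positive cells from more UMIs in each. Krt4 was detected in 25.3% of cells in P (24.3 to 26.4%) and 67.1% in D (65.7 to 68.5%). Cells with Krt4 held on average 2.32 UMIs in P and 3.94 in D, so both the share and the amount per positive cell were higher in D. Krt13 went the other way on both, with 24.7% of cells (23.7 to 25.7%) and 3.75 UMIs per positive cell in P and 3.55% (3.03 to 4.14%) and 1.65 UMIs in D. At least 10 Krt13 UMIs were held by 146 cells of P, with a maximum of 49, and by 0 of 4417 cells of D. The latter allows a share of up to 0.0679%, taken as 3 of 4417 cells and not as an exact interval. In P the 10% of cells richest in Krt13 held 79.4% of its UMIs.

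Krt6a was the most widely detected of the 8 genes in P, in 39.8% of cells (38.6 to 41.0%), and was found in 27.4% (26.1 to 28.8%) in D. Krt6b was seen in 4.29% of cells in P (3.82 to 4.81%) and in 12 cells, 0.272% (0.140 to 0.474%), in D. Krt16 was seen in 1.82% (1.51 to 2.17%) and 4.94% (4.32 to 5.62%), and Krt1 in 1.66% (1.36 to 1.99%) and 4.48% (3.89 to 5.13%). These sparse genes were thus detected in few cells in either library. Krt10 was seen in 4.34% (3.86 to 4.86%) of P cells and 6.79% (6.07 to 7.57%) of D cells. Krt23 was seen in 1.73% (1.43 to 2.08%) and 2.04% (1.64 to 2.50%), with overlapping intervals. Without thinning the shares were higher, for example 32.7% and 71.2% for Krt4 and 49.5% and 38.4% for Krt6a, with the same order of the libraries for each gene. When detection required 2 UMIs, the order turned for Krt10, to 0.693% in P and 0.611% in D, and for no other gene of the 8.

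**Figure D3:**
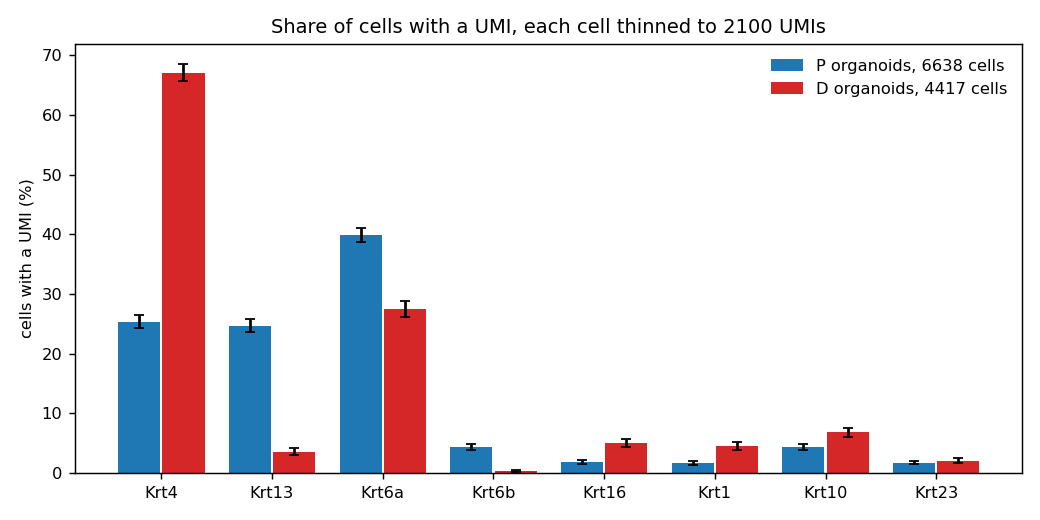
Share of cells with at least 1 UMI of each keratin after each cell was thinned to 2100 UMIs, in 6638 cells of P and 4417 cells of D organoids, with exact binomial 95% intervals as error bars. Krt4 stands at 25.3% in P and 67.1% in D, and Krt13 at 24.7% and 3.55%.

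Free RNA in droplets gives UMIs in cells that do not express a gene, and no non-epithelial cells were at hand to measure it. The lowest shares found in groups of at least 20 cells serve as upper bounds of that level within those groups only. Median depth before thinning was 3450 UMIs over all thinned cells of P and 3395 UMIs in D, and most of these groups were deeper. The bounds therefore need not hold for all cells of a library. For Krt13 in P this was 9.42%, in the 138 cells with at least 10 UMIs of 12 cycling genes (median depth before thinning 4263.5 UMIs), and for Krt6a 20.7%, in cells rich in basal adhesion genes (3064 UMIs). For Krt4 in D it was 13.9%, in 36 cells with at least 10 UMIs of basal adhesion genes (3412 UMIs). Krt6a in the same 36 cells of D was at 19.4% (7 cells), beside 27.4% over all D cells. For the sparser genes in D the bound was lower. In the 260 cells with at least 10 uroplakin UMIs (4578 UMIs) it was 1.92% for Krt13, 0.769% for Krt16 and 2.69% for Krt10. It was 0 of 133 cells for Krt1 and 0.877% for Krt23. The share of Krt13 over all D cells, 3.55%, lay within the exact interval of its bin, which reached up to 4.43%. Each bin was chosen as the lowest for its gene, so a share over all cells could hardly lie below it. The shares over all D cells were 4.94% for Krt16 and 4.48% for Krt1, and the intervals of their bins reached up to 2.75% and 2.74%. The part of free RNA in these shares was not tested.

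Cells were placed on 4 axes by their summed thinned UMIs of genes other than keratins. Along uroplakins, the membrane proteins of luminal urothelium, Krt4 in D was detected in 49.8% of cells without a uroplakin UMI and in 87.7% of cells with at least 10. Along 7 basal genes (integrins, laminins, Col17a1 and Trp63) the order was the opposite, with Krt4 in 83.4% of D cells at 0 UMIs and 13.9% at 10 or more. Krt16 was the mirror image in D, in 3.39% of cells at 0 basal UMIs and 25% (9 of 36 cells) at 10 or more, and in 7.95% of cells without uroplakin UMIs and 0.769% at 10 or more. Krt4 and Krt16 were therefore detected most often at opposite ends of both axes in the same library. Krt1 in D followed Krt16 along uroplakins, from 6.83% to 0.385%, and Krt10 from 8.48% to 2.69%. Krt23 followed Krt4, from 0.926% to 5%. The size of these gaps depended on the depth of thinning. At 1500 UMIs, where 3 to 9 basal UMIs was the highest bin with at least 20 cells of D, the basal gap of Krt16 was 5.14 points in place of 21.6 and that of Krt4 -43.0 in place of -69.5, and the uroplakin gap of Krt1 was -2.48 in place of -6.44. At 3000 UMIs the uroplakin gaps of Krt16 and Krt23 were wider, -11.5 in place of -7.18 and 7.02 in place of 4.07.

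Along cornified-envelope genes, of which Sprr1a had the most UMIs, Krt13, Krt6a, Krt6b and Krt23 in P were seen most often in the richest cells. Krt13 was detected in 15.0% of P cells without such UMIs (median depth before thinning 3148 UMIs) and in 55.8% of cells with at least 10 (4003 UMIs). Krt6a went from 24.99% to 83.05% between the same bins, Krt6b from 0.856% to 25.8% and Krt23 from 0.746% to 9.09%. Krt4 in P was at 16.1% and 40.5%, with its highest share, 42.6%, in the bin of 3 to 9 UMIs. Krt16, Krt1 and Krt10 in P had overlapping intervals at both ends. In D Krt23 (0.877% to 9.77%), Krt4 (57.1% to 82.7%) and Krt6a (26.2% to 39.1%) were also seen more often in the richest bin. Krt1 went the other way, from 5.96% to 0 of 133 cells (exact interval up to 2.74%), and this gap of -5.96 points was -0.859 at 1500 UMIs. Krt13 stood at 2.92% and 3.76%, with overlapping intervals. Between these bins depth before thinning was 3125 and 4806 UMIs in D, and its part in the differences was not tested.

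**Figure D4:**
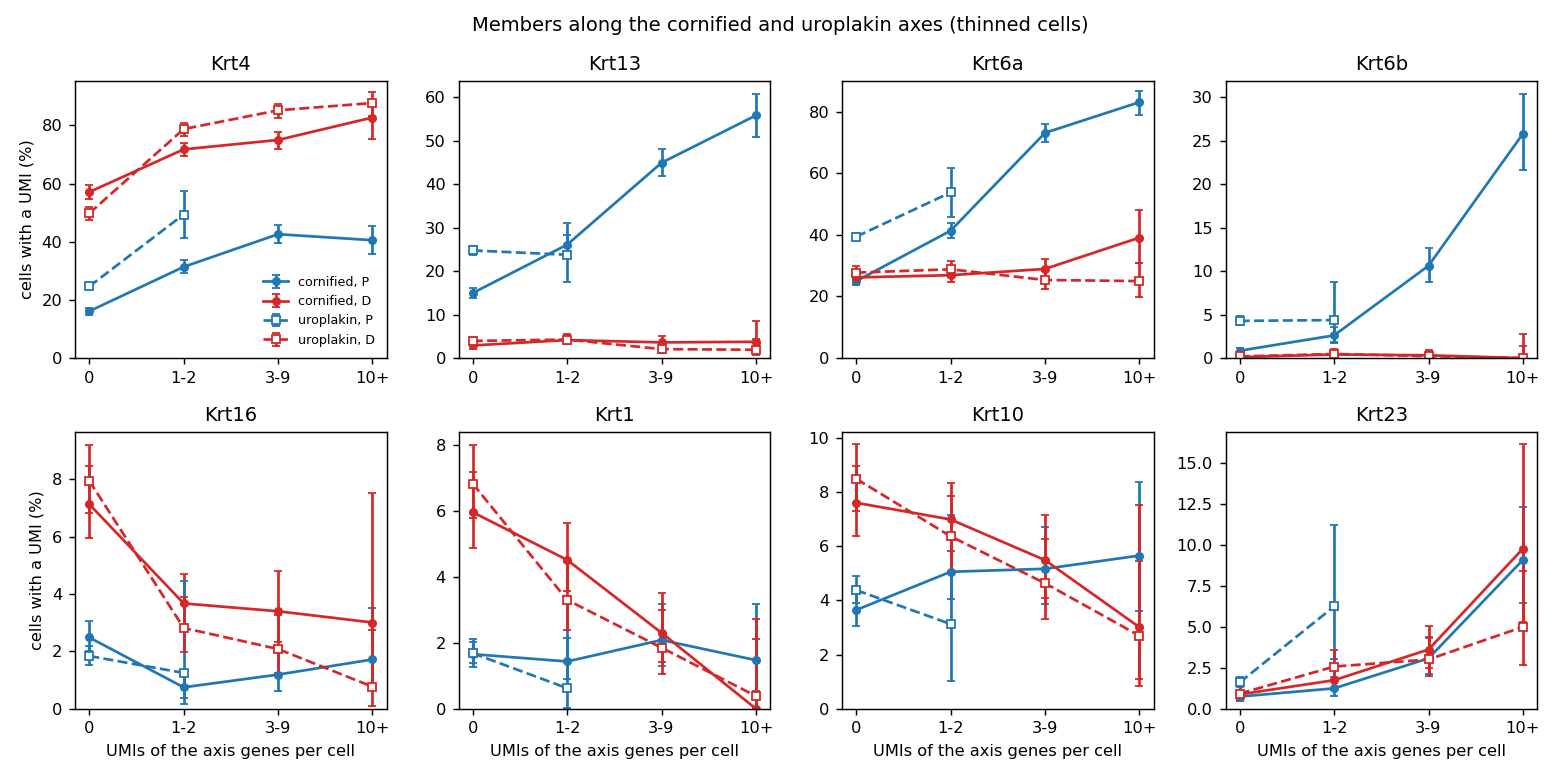
Share of thinned cells with a UMI of each keratin (vertical, percent, each panel on its own scale from 0) by the number of UMIs per cell of cornified-envelope genes (solid, circles) or uroplakins (dashed, squares), P in blue and D in red, with exact binomial 95% intervals and bins under 20 cells left out. In P, Krt13, Krt6a and Krt6b are highest in cells richest in cornified-envelope UMIs, and in D Krt4 is highest, and Krt16 lowest, in the bin richest in uroplakin UMIs, while Krt1 is lowest in the bin richest in cornified-envelope UMIs.

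In P the more abundant keratins were seen less often in cells rich in cycling or basal transcripts. Between 0 and at least 10 UMIs of cycling genes, Krt4 was seen in 26.5% and 11.6% of cells, Krt13 in 25.8% and 9.42%, and Krt6a in 41.2% and 22.5%. Krt6b was seen in 4.72% of cells at 0 and in 0 of 138 cells at 10 or more (exact interval up to 2.64%). From 0 to 3 to 9 basal UMIs, Krt13 went from 39.5% to 10.6%, Krt6a from 59.4% to 20.7% and Krt6b from 8.98% to 0.368%. The cycling gap of Krt4 was -14.9 points and became -4.71 with thinning to 1500 UMIs, where the highest bin held 74 cells, while those of Krt6a and Krt6b widened from -18.7 to -32.9 and from -4.72 to -8.03 at 3000 UMIs. At that depth 38 cells of P held at least 10 basal UMIs, and the basal gaps, here to that bin, were -58.7 points for Krt6a in place of -38.7 and -14.1 for Krt6b in place of -8.61. At 1500 UMIs that of Krt6b was -5.34. Krt16 alone had a higher share in the basal bin, 2.78% against 1.25%, a gap of 1.53 points that became 0.279 at 1500 UMIs and 0.950 at 3000 UMIs. Along the basal axis, among bins of at least 20 cells, the share of Krt16 was highest in the bin richest in basal genes in both libraries, which does not match the name suprabasal. In P its share was 4.02% in the 448 cells with 1 to 2 cycling UMIs, with an interval (2.40 to 6.28%) that overlapped that of the basal bin. The 4 axes were split into the same bins in both libraries, to set cells with like UMI sums side by side. The genes behind a sum could differ. Over all kept cells, Flg counted 5651 UMIs for P against 1 for D, and Upk3a 4 against 6884, whereas Sprr1a stood at 690 and 806 CPM. Whether cells of a shared bin were alike in state was not tested. Of the bins, 11 held at least 20 cells in each library. The axes re-use the same cells, so these are not 11 independent comparisons. Krt4 and Krt16 were higher in D in 11 of 11 bins, Krt13 and Krt6a were higher in P in 11 of 11, Krt6b in 10 of 11, and Krt1 was higher in D in 10 of 11. The shift of 0.42 was kept in these bin ratios, and no such count was made over other genes. Below that shift lay the lowest Krt16 ratio, 0.35. So did Krt1 in cells with 0 basal UMIs (0.40) and with 3 to 9 cornified-envelope UMIs (0.35). Within bins the log2 ratio of Krt13 ran from -5.76 to -2.78 and that of Krt4 from 1.14 to 3.01, while that of Krt6a came as close to 0 as -0.05. Krt10 (9 bins higher in D and 2 in P) and Krt23 (6 and 5) had no common direction.

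Co-detection in single cells was then examined for all 28 pairs in thinned cells. In P the shares of one keratin among cells with and without the other had intervals apart for 13 pairs, each time with more cells holding both, and in D for 12 pairs with more and 1 with fewer. No such count was made for pairs of other genes. Whether pairs of these keratins stand apart from other gene pairs was therefore not tested. In P the mucosal partners were found together, with Krt13 in 39.6% of 1681 cells with Krt4 and 19.6% of the others. In D Krt13 was in 4.22% of cells with Krt4 and 2.20% of the others, so most Krt4 cells carried no Krt13 UMI at this depth. That gap of 2.02 points was 4.10 with thinning to 3000 UMIs. Krt13 and Krt6a were in the same cells more often still in P, with Krt6a in 67.7% of Krt13 cells. In D 86 cells held both, 54.8% of the few Krt13 cells. The part of free RNA in these D cells was not tested.

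The stress-associated keratins split as well. In P 249 of 285 Krt6b cells (87.4%) also held Krt6a and 208 (73.0%) held Krt13, 2.96 times as many as the product of both shares gives. Krt16 was in 2.12% of P cells with Krt6a, and the overlap of this pair was 1.16 times the product in P and 1.20 times in D, with overlapping intervals. Krt4 and Krt16 in D were the single pair found together less often, with Krt16 in 3.21% of Krt4 cells and 8.46% of cells without Krt4, a gap of -5.25 points that was -13.0 at 3000 UMIs. Krt1 and Krt10 were rare but shared cells in both libraries, with Krt10 in 20.9% of Krt1 cells in P (23 of 110) and 18.2% in D (36 of 198), against 4.06% and 6.26% of the others. Krt23 shared cells with Krt6b in P, where 20 of 115 Krt23 cells held it, 4.05 times the product. Krt23 was seen in 0 of the 198 Krt1 cells of D, an exact interval up to 1.85% that overlapped that of the others, 2.13% (1.72 to 2.62%). Of the Krt6b pairs in D, which rest on 12 cells, none is read here.

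**Figure D5:**
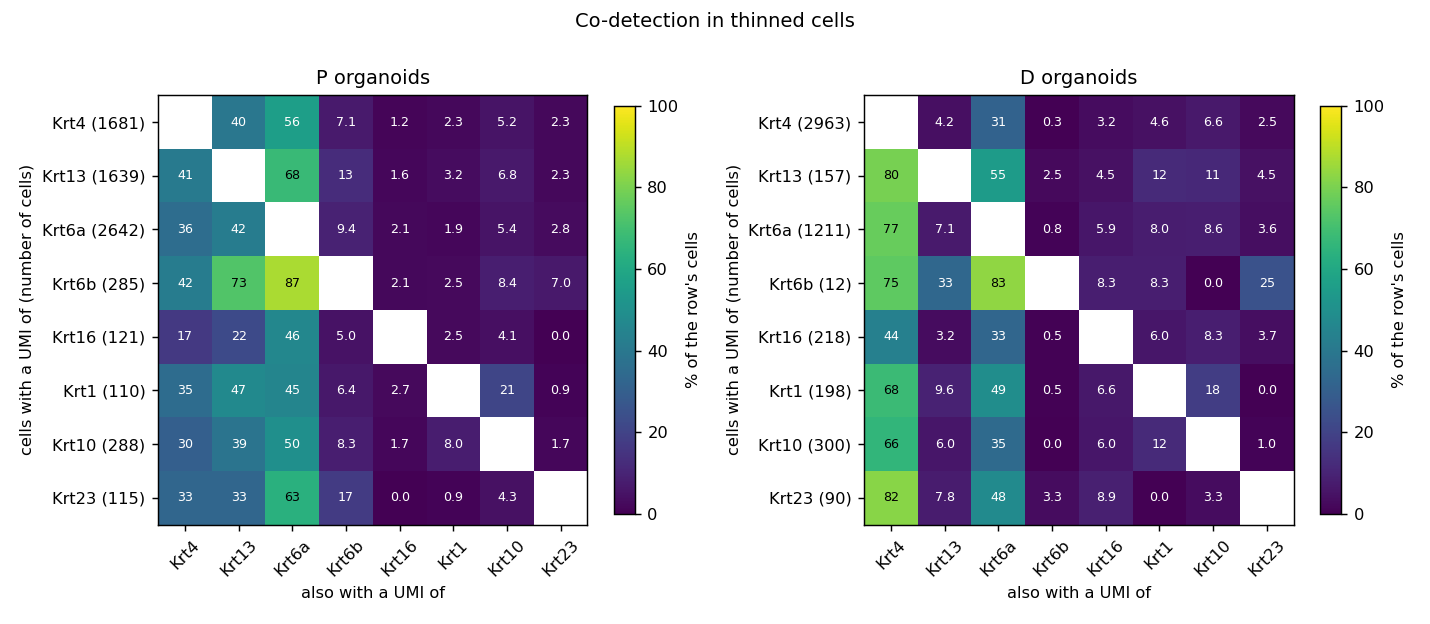
Share of the cells with a UMI of the row keratin that also held a UMI of the column keratin (percent, colour and number), in thinned cells of P (left) and D (right) organoids, with the number of cells in brackets at each row. Krt6b cells of P held Krt6a in 87.4%, and Krt4 cells held Krt13 in 39.6% in P and 4.22% in D.

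Doublets, droplets with more than 1 cell, can add to co-detection. The caller Scrublet marked 0 of 6818 and 0 of 4896 cells and so gave no usable call. In its place the 6% of cells with the highest scores were left out, a choice made after the data were seen, and every pair with intervals apart kept its direction. The gap in Krt13 share between P cells with and without Krt4 was 19.99 percentage points and became 18.2, and that in Krt10 share by Krt1 went from 16.9 to 17.4. The gap in Krt23 share by Krt6b in P went from 5.52 to 2.83 points, and that in Krt6b share by Krt13 in D, which rests on 4 cells with both, from 2.36 to 0.249.

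Patterns over all 8 genes differed between the libraries. No keratin of the 8 was seen in 40.5% of P cells (39.3 to 41.7%) and 21.6% of D cells (20.4 to 22.9%), whereas at least 2 were seen in a like share, 29.6% (28.5 to 30.7%) and 30.0% (28.7 to 31.4%). The most frequent combinations in P after none were Krt6a alone (945 cells), Krt4 alone (524), Krt13 with Krt6a (449), Krt4 with Krt6a (391) and all 3 of them (354). In D Krt4 alone (1733 cells) was more frequent than none (955), followed by Krt4 with Krt6a (676). No cell held more than 5 of the 8.

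The genes whose counts followed each keratin most closely over single cells were named for keratins seen in at least 5% of thinned cells, as Pearson correlations of log2(1 + UMIs), which are descriptions over cells of 1 library. In P Krt13 went with Csta1, a cysteine protease inhibitor of squamous cells (r = 0.44 over 6638 cells), Krt6a (0.43) and Gsto1 (0.41). Krt6a went with Gsto1 (0.53), Krt19 (0.49) and Gsta4 (0.48), and Krt4 with Gsto1 (0.37), Cbr2 (0.31) and Anxa1 (0.30). Gsto1 and Gsta4 are glutathione transferases and Cbr2 a carbonyl reductase. In D Krt4 went with Psca, a surface protein of luminal cells (r = 0.53 over 4417 cells), Gsta4 (0.53) and Cbr2 (0.50). Krt6a in D was less closely followed by any gene, with 0.26 for Gsta4, 0.25 for Gsto1 and 0.25 for Anxa1, and Krt10 reached at most 0.10 (Dapl1), which is no finding in counts this sparse. Krt4 and Krt6a correlated at 0.18 in P and 0.13 in D.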

How the data were processed

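Organoids were dissociated and cells captured with the 10x 3′ v3 chemistry, 1 library per condition. The deposited values are counts of unique molecular identifiers (UMIs), which the authors made with Cell Ranger 3.0.2 on GRCm38 (mm10), 1 count per captured molecule and not normalized. Groups came from the labels. Following the study's limits, cells with over 800 genes and at most 12% mitochondrial UMIs were kept. UMIs were summed over cells and given per 1000000 UMIs (CPM), and a gene with at least 100 UMIs in all counted as higher at 2-fold or more. Intervals are exact at 95% (Poisson, conditional binomial or Clopper-Pearson). The ratio and thinning code was tested on simulated data. Shares used cells thinned to 2100 UMIs (seed 1). The named genes are the 8 keratins, other keratins with at least 100 UMIs, the gene lists, and the 3 genes best correlated with a keratin seen in at least 5% of cells. The 8 keratins and all lists were chosen with earlier results of these data known. Alternatives covered the cell filter, scaling, UMI minimum, thinning depth, detection limit and doublets. No cells were clustered. Positions and transcript ends came from GENCODE M21. Python 3.11.15 with numpy 2.4.6, scipy 1.17.1, pandas 2.3.3 and scanpy 1.11.5 was used.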

Additional observations from a re-analysis of the deposited data

Results flagged for a closer look

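The barcodes that the cell filter left out also held UMIs of these keratins. In P the 1376 barcodes left out held 1029.6 keratin UMIs of the 8 genes per 1000000 non-mitochondrial UMIs (986 to 1075), below the 1656 of the kept cells. In D the 2079 barcodes left out held 1531.4 per 1000000 (1479 to 1586), against 1875 in the kept cells. Within P the order depended on why a barcode was left out. The 476 barcodes over 12% mitochondrial UMIs held 861.64 Krt4 UMIs per 1000000, where kept cells held 364, whereas the 900 others held 123. In D the 1906 barcodes over 12% mitochondrial UMIs held 1151 Krt4 UMIs per 1000000 and the kept cells 1439.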

How the results depend on the processing

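The counts of keratins at least 2-fold higher in D and in P stayed at 3 and 3 under every alternative run (cell filter looser, stricter or absent, scaling by the median ratio or without mitochondrial and ribosomal protein genes, mean of per-cell CPM, no UMI minimum, and top 6% of doublet scores left out). The share of keratin UMIs from the 8 genes in P was 11.2% with the looser filter, 12.5% with the stricter one, 11.3% over all barcodes and 11.7% without the top doublet scores. In D it was 6.99% with the stricter filter and 7.03% over all barcodes. Of 56 alternative log2 ratios 33 stayed within the counting interval and 0 changed the sign of a called gene. Krt6a ran from -1.62 to -1.09, Krt1 from 1.20 to 1.84, Krt10 from -0.15 to 0.38 and Krt23 from -0.29 to 0.17. Of 78 co-detection gaps and 62 axis differences 0 changed sign. Only gaps whose intervals were apart in the main run were followed, in the same cells, so a change of sign was unlikely from the start. In size, 10 of 31 axis differences moved by over 1.5 times at 1500 UMIs and 11 of 31 at 3000 UMIs. Of 64 shares of cells 60 moved with thinning depth or detection limit. Scrublet's own doublet call could not be used because it marked 0 cells. No paired analysis was possible because each condition was 1 library. Depth limits Krt6b in D, with 28 UMIs, and the shares of cells for Krt16, Krt1, Krt10 and Krt23. In D their positive thinned cells held on average 2.05, 1.96, 1.15 and 1.29 UMIs.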

Other observations

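Cells were also read in the other direction, from the keratin to the summed level of the axis genes. In P the 430 cells with at least 5 Krt13 UMIs held 351 CPM of basal adhesion genes, 69.8 CPM of cycling genes and 2617 CPM of cornified-envelope genes, while the 4999 cells without Krt13 held 992, 285 and 669 CPM. The 183 P cells with at least 5 Krt4 UMIs held 13.0 CPM of cycling genes, against 278 CPM in cells without Krt4. The uroplakin level in those P cells was 49.4 CPM and in cells without Krt4 10.7 CPM. In D the 24 cells with at least 5 Krt16 UMIs held 1468 CPM of basal adhesion genes and 119 CPM of uroplakins, and the 4199 cells without Krt16 held 881 and 1150 CPM. Cells of D with 1 to 4 Krt23 UMIs stood at the other end, with 2081 CPM of uroplakins and 2145 CPM of cornified-envelope genes. The 44 D cells with at least 5 Krt6a UMIs held 498 CPM of uroplakins, against 1143 CPM in cells without Krt6a. Among the cornified-envelope genes themselves Flg, Crnn, Cnfn and Rptn were at least 2-fold higher in P, with 5651 Flg UMIs in P and 1 in D, while Sprr1a was at 690 CPM in P and 806 CPM in D.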
